A study of Mus musculus with 15 samples.

Results

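10 genes that mark neuroblasts, the young migrating neurons of the brain, were followed in bulk RNA-seq libraries from injured mouse cortex. The genes are Dcx, Sox11, Dlx1, Dlx2, Dlx5, Sp8, Sp9, Meis2, Cd24a and Igfbpl1, which is 10 of the 33223 genes listed in each count table, and all 10 were matched to a GRCm38 gene identifier by symbol. They were picked by name with earlier results of these data known, among them the large difference between the cell fractions. That difference is therefore described here without a test, while the comparison of genotypes was fitted over all genes.

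The mice carried EphA4 f/f, floxed alleles of the receptor tyrosine kinase gene Epha4, and were either WT or Endothelial EphA4 KO. The KO animals also carried VeCadCreERT2, a tamoxifen-dependent Cre driven by the VE-cadherin promoter of endothelial cells, so both groups shared the floxed alleles and the deletion is aimed at vessels rather than at neuroblasts. All had a moderate controlled cortical impact (CCI), a piston injury, to the right parietal cortex, and tissue from that side was taken at 1 day. Dissociated cells were passed over CD45 and CD31 beads, which take leukocytes with microglia and endothelial cells, and RNA was taken from the CD45 cells and from the flow-through of remaining cells. The flow-through was compared in 4 WT against 3 KO libraries, and the CD45 fraction in 3 WT against 4 KO. The sources used here do not state age, sex or which animals made up a library, so p-values reflect only the spread among these libraries, part of which may be technical.

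Neuroblasts arise from dividing progenitors in the wall of the lateral ventricle and migrate in chains to the olfactory bulb, where they become inhibitory interneurons. Brain injury is known to draw some of them toward damaged tissue. Their identity rests on a cascade of homeodomain and zinc finger transcription factors, and their movement on a doublecortin-bound microtubule cage and on adhesion proteins at the surface.

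Total counts ran from 19204814 to 27270907 per flow-through library and from 11574414 to 31337948 per CD45 library. A further library carries the label flow-through WT but its counts are in the CD45 table, and it was left out. The 10 genes without Cd24a summed to 4.59 CPM (the count scaled to the library total) in it, against 518 to 906 CPM in the flow-through and 2.25 to 8.08 CPM in the CD45 libraries. Epha4, the targeted gene, lay at 38.5 to 43.0 CPM in WT and 36.03 to 42.2 CPM in KO flow-through libraries, and at 2.699 to 2.92 and 1.69 to 3.54 CPM in the CD45 libraries. Neither fraction is an endothelial isolate, so these values do not check the deletion.

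The label of the gene set was compared with markers of other cells that use some of these genes. Of 14 genes of striatal projection neurons, which keep Meis2, the dopamine receptor genes Drd1 (0.523 to 1.20 CPM) and Drd2 (0.885 to 2.998 CPM) were low in the flow-through, and Isl1 and Gpr6 were at 0 counts in 5 and 3 of the 7 libraries. Other genes of that list were higher, among them Penk at 20.5 to 69.9 CPM, Ppp1r1b at 14.8 to 40.2 CPM, Pde10a at 17.9 to 27.4 CPM and Rgs9 at 8.42 to 12.1 CPM. Of the cortical interneuron list, Lhx6 did not exceed 0.406 CPM and Vip did not exceed 0.833 CPM. The same list held Prox1 at 118 to 185 CPM, Cck at 7.47 to 24.1 CPM, Pvalb at 7.64 to 11.3 CPM, Adarb2 at 5.48 to 12.6 CPM and Slc32a1 at 5.73 to 10.5 CPM. The markers thus do not show how much of the RNA of the 10 genes came from neuroblasts rather than from such neurons. Prokr2, a receptor that guides neuroblasts to the olfactory bulb, was present at 4.36 to 23.0 CPM. Foxj1, the ciliary regulator of ependymal cells, which line the ventricle, was at 140 to 246 CPM. In bulk RNA, fewer cells of a type and less RNA per cell cannot be told apart, and the makeup of the flow-through was not measured.

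The promoters of 4 members are shown because these members stand for the main roles below: a cytoskeletal protein, and transcription factors of the SOX, DLX and SP families. Promoter sequences come from RefSeq on GRCm38.p6, which held 7 of the 10 genes. Each stretch runs 5′ to 3′ on the gene's strand, ends before the annotated start, and leaves out annotated exons. Capitals mark GC boxes, the letters GGGCGG on either strand, to which SP factors bind.
Dcx (chrX:143933312-143933469, minus strand): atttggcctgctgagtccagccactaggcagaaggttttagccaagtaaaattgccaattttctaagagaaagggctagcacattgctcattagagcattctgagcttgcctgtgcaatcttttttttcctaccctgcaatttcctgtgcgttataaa
Sox11 (chr12:27342719-27342968, minus strand): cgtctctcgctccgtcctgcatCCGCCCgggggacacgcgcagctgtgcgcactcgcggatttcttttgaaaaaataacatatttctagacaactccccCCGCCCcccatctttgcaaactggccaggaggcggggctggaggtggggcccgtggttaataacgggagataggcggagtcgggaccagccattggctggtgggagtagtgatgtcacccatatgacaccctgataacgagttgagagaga
Dlx2 (chr2:71546755-71547004, minus strand): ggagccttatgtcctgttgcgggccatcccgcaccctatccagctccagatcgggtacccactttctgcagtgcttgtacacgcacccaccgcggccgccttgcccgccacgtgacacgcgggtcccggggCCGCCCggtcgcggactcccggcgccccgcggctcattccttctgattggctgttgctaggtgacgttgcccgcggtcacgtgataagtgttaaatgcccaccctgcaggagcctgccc
Sp9 (chr2:73271676-73271924, plus strand): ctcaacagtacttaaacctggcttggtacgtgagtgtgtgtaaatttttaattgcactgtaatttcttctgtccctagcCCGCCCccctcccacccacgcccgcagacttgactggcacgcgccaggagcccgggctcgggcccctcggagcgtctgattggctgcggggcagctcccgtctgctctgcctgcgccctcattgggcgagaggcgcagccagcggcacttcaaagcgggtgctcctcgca
Dcx differed from the other 3 in base composition, with a GC content of 42.4% against 58.0% for Sox11, 66.4% for Dlx2 and 62.2% for Sp9, and held no GC box in the stretch shown. Over whole windows of 300 bases, 250 before the start and 50 after it, a GC box stood in 5 of the 10 windows of these 7 genes, some of which have several starts, and in 35.7% of all 32851 windows. The homeodomain core TAATTA, the same letters on both strands, stood in 3 of the 10, both overlapping windows of Dcx and 1 of Sp8, and in 5.29% of all windows. These matches are descriptions of letters and show no binding. Sox11 stands on chromosome 12 from 27334264 to 27342574 and Dcx on chromosome X from 143855842 to 143933311, both on the minus strand. Dlx1 and Dlx2 are neighbours on chromosome 2, at 71528113 to 71533981 on the plus strand and 71543408 to 71546754 on the minus strand. Of the exon sequence of Dlx1, 6.2% overlaps Dlx1as on the opposite strand, and 5.4% of that of Sp9 overlaps Cir1, so their values are uncertain to that extent because the strand setting of the counting is not given.

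Doublecortin, the product of Dcx, binds and bundles the microtubules of migrating neurons and is the standard marker of neuroblasts. Its 4 WT flow-through libraries held 180, 256, 204 and 196 CPM, and its 3 KO libraries 162, 161 and 101 CPM. All KO libraries lay below all WT libraries, and the lowest, KO replicate 3, stood well apart from the other two. The WT mean was 209 CPM ± 32.8 (SD, n = 4) and the KO mean 141 CPM ± 34.8 (SD, n = 3). The log2 fold change of KO over WT was -0.53 (SE 0.17, 95% interval -0.92 to -0.15, edgeR adjusted p = 0.255), which did not pass. Without KO replicate 3 it was -0.34, with an edgeR adjusted p of 0.394. DESeq2, another count test, gave -0.54 with an adjusted p of 0.0445.

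Sox11 encodes a transcription factor that acts early in neuronal differentiation and is switched off as neurons mature. It held 139, 134, 128 and 117 CPM in WT libraries and 119, 102 and 71.4 CPM in KO libraries. The groups overlapped by a single pair, WT replicate 4 and KO replicate 1. The log2 fold change was -0.38 (SE 0.16, 95% interval -0.73 to -0.04, edgeR adjusted p = 0.379), and without KO replicate 3 it was -0.20.

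The DLX homeodomain factors specify GABAergic neurons of the ventral forebrain. Dlx1 held 117, 143, 112 and 104 CPM in WT libraries and 108, 79.6 and 89.0 CPM in KO libraries. Dlx2, its partner in early progenitors, held 47.0, 49.8, 45.0 and 39.4 CPM in WT and 41.6, 30.98 and 38.3 CPM in KO libraries. In both genes WT replicate 4 was lower than KO replicate 1, and KO replicate 2 was the lowest of all. Dlx5, which acts later in the cascade, ran from 11.9 to 17.04 CPM in WT and from 10.05 to 12.4 CPM in KO libraries. The log2 fold changes were -0.34 for Dlx1 (SE 0.13), -0.27 for Dlx2 (SE 0.12) and -0.37 for Dlx5 (SE 0.15), with edgeR adjusted p from 0.298 to 0.405. The proportions among them varied less than the genes themselves: Dlx1 stood at 2.32 to 2.88 times the CPM of Dlx2, a coefficient of variation of 6.66%, and at 7.92 to 8.80 times that of Dlx5, a coefficient of variation of 4.47%. Each gene alone varied more over the 7 flow-through libraries, by 19.0% for Dlx1 and 19.4% for Dlx5.

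Sp8 and Sp9 are zinc finger factors that act in neuroblasts bound for the olfactory bulb. Sp8 held 23.9, 31.7, 23.1 and 23.5 CPM in WT libraries and 20.3, 19.8 and 19.0 CPM in KO libraries. The KO values lay close together and below all WT values, and WT replicate 2 stood above the rest. Sp9 ran from 25.9 to 32.7 CPM in WT and from 18.6 to 27.2 CPM in KO libraries, which overlapped. Log2 fold changes were -0.35 for Sp8 (SE 0.12, edgeR adjusted p = 0.240) and -0.32 for Sp9 (SE 0.13, edgeR adjusted p = 0.359).

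Meis2, a TALE homeodomain factor that works with PAX6 and DLX2 in olfactory neuroblasts, held 145, 146, 134 and 122 CPM in WT libraries and 115, 108 and 102 CPM in KO libraries. The groups did not overlap. Its log2 fold change was -0.31 (SE 0.10, 95% interval -0.52 to -0.10, edgeR adjusted p = 0.187).

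Cd24a encodes a small glycosylated surface protein found on neuroblasts, on ependymal cells and on several leukocytes. Its WT flow-through libraries held 390, 426, 361 and 369 CPM and its KO libraries 308, 327 and 233 CPM, again without overlap. The log2 fold change was -0.39 (SE 0.12, 95% interval -0.65 to -0.13, edgeR adjusted p = 0.187), and without KO replicate 3 it was -0.25. Igfbpl1, an IGF-binding-protein-like gene of immature neurons, ran from 60.3 to 96.1 CPM in WT and from 58.3 to 65.2 CPM in KO libraries. Its value of -0.30 on the log2 scale (SE 0.14, edgeR adjusted p = 0.467) had the only 95% interval of the 10 that reached above 0, from -0.61 to 0.01.

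**Figure D1:**
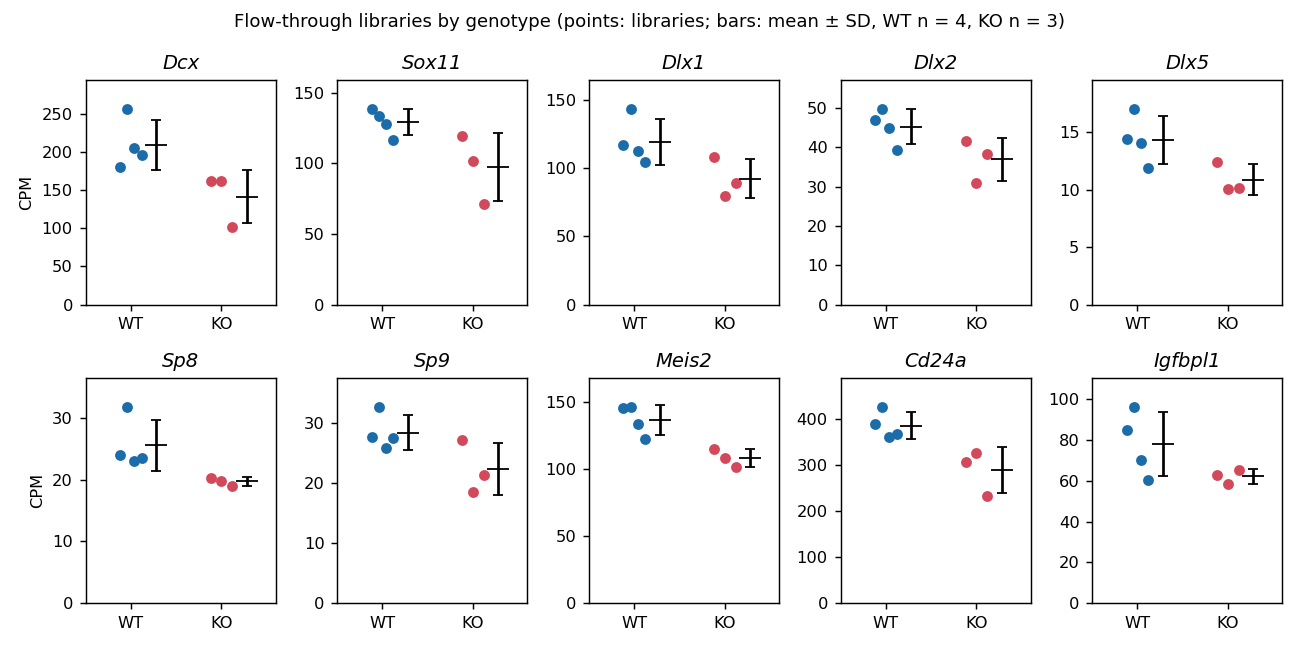
CPM of the 10 genes in the flow-through libraries, 1 panel per gene with its own axis from 0; points are libraries and bars give the mean ± SD for WT (n = 4) and KO (n = 3). The KO points of Dcx, Sp8, Meis2 and Cd24a lie below all WT points, and those of the other 6 genes overlap the WT points.

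Read as a set, all 10 genes had a negative log2 fold change in KO, from -0.53 to -0.27 with a median of -0.35, and 0 of 10 passed the edgeR test after adjustment over all genes. Over the 16546 genes tested the median was -0.01, and 51.7% of genes had a negative value. The test called 1.57% of all genes, and 0.151% were called lower in KO. At an unadjusted p under 0.05 edgeR had 9 of the 10 genes lower in KO, against 4.2% of all genes. After adjustment DESeq2 called 1 of 10 lower, Dcx, and 436 of 16546 genes, 69 of them lower. Without the filter on low counts edgeR called 4 of 10 lower, Dcx, Sox11, Dlx1 and Cd24a. Their log2 fold changes were nearly those of the main fit, -0.53, -0.38, -0.34 and -0.39. Their SE was smaller, 0.10 for each, against 0.17, 0.16, 0.13 and 0.12 with the filter. These calls thus rest on smaller SEs and not on larger differences. The fit without the filter called 629 of 30364 genes, 137 of them lower. In 4 of the 10 the KO libraries lay below all WT libraries, against 6.78% of all genes. The 10 genes moved together between libraries, as described next, so these counts do not amount to 10 separate observations. The direction held when each library was left out in turn, with the set's median between -0.46 and -0.27, and after a correction for GC content and length (median -0.36). With the left-out library entered under its label, the median was -0.04.

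**Figure D2:**
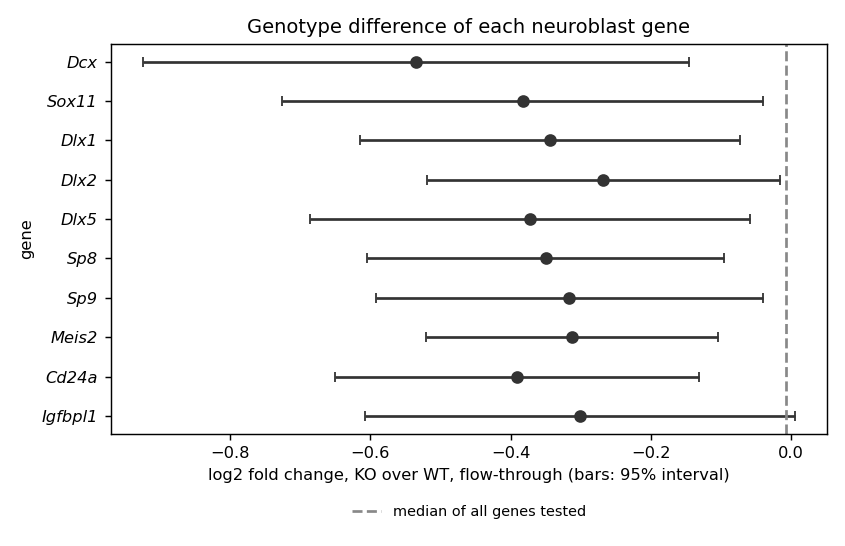
Log2 fold change of KO over WT in the flow-through for each gene, with 95% intervals from the edgeR fit; the dashed line is the median of all 16546 genes tested. All 10 points lie left of the dashed line, from -0.53 for Dcx to -0.27 for Dlx2, and the interval of Igfbpl1 crosses 0.

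Co-variation was read from how each library stood for each gene. WT replicate 2 was the highest of the 7 flow-through libraries for 9 of the 10 genes, the exception being Sox11, for which WT replicate 1 was higher. The lowest library was KO replicate 2 for 5 genes and KO replicate 3 for the other 5. Both stood below the gene's own mean for all 10 genes. KO replicate 1 and WT replicate 4 lay between, with 4 and 5 genes above their means. The spread within WT, from WT replicate 2 at a mean deviation of 0.38 log2 units to WT replicate 4 at 0.01, was thus of the same order as the difference between genotypes.

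KO replicates 2 and 3 differed in how far below the mean each gene lay. KO replicate 2 was lowest for Dlx1, Dlx2, Dlx5, Sp9 and Igfbpl1, with its largest deviation, -0.46, in Sp9. KO replicate 3 was lowest for Dcx, Sox11, Sp8, Meis2 and Cd24a, with deviations of -0.78 in Dcx, -0.67 in Sox11 and -0.54 in Cd24a, but only -0.11 in Dlx2 and -0.10 in Igfbpl1. The longest transcripts of Dcx, Cd24a and Sox11 have a GC content of 40.6%, 43.0% and 46.5%, and those of Dlx2 and Igfbpl1 58.3% and 55.7%. Sp8, Sp9 and Dlx1, at 49.6%, 52.5% and 54.6% GC, lay between these genes, with deviations of -0.26, -0.25 and -0.25. Meis2, at 43.8% GC, deviated by -0.28 and Dlx5, at 54.7% GC, by -0.31, which departs from that order. After the correction for GC content and length, the log2 fold changes of Dcx, Cd24a, Sox11, Dlx2 and Igfbpl1 were -0.47, -0.30, -0.36, -0.36 and -0.36. The order of the genes by size of difference thus changed with this correction, and all stayed negative. KO replicate 3 also had the highest total count of the 7. The part of GC content and of total count in the deviations of this library was not tested.

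**Figure D3:**
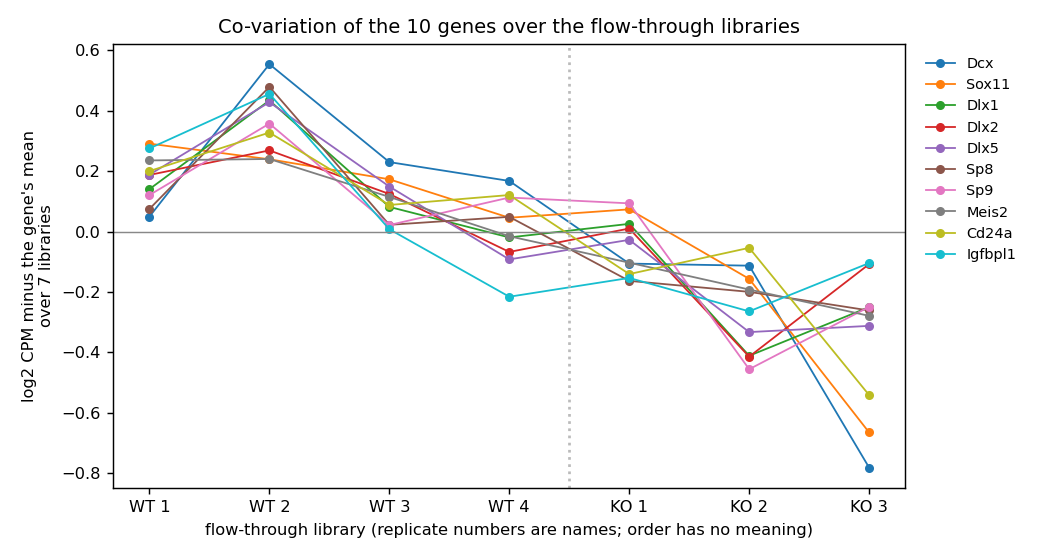
Log2 CPM of each gene minus its mean over the 7 flow-through libraries, 1 line per gene; lines join the values of a gene and the order of libraries within a genotype has no meaning. WT replicate 2 is above 0 for all 10 genes, KO replicates 2 and 3 are below 0 for all 10, and Dcx in KO replicate 3 is the lowest point at -0.78.

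Dcx was correlated with each of the 9 other genes over the 7 flow-through libraries, on log2(CPM + 1). Genes outside the set were not correlated with Dcx, so the counts below have no share over all genes beside them. They do not show that co-variation with Dcx is particular to the set. Pearson's r was positive for all 9, from 0.54 for Igfbpl1 and Dlx2 to 0.96 for Cd24a. By an exact two-sided permutation test with adjustment over the 9 relations, 5 passed, with Cd24a at an exact p of 0.00238 (adjusted 0.0214). The others were Sox11 (r = 0.89, adjusted p = 0.0440 by the exact permutation test), Meis2 (r = 0.83, adjusted 0.0429), Sp8 (r = 0.85, adjusted 0.0475) and Dlx5 (r = 0.80, adjusted 0.0475). Spearman's rho ran from 0.57 to 0.89 and passed for 0 of 9 after adjustment, the smallest adjusted exact permutation p being 0.0720; for Cd24a it was 0.82 (exact permutation p = 0.0341, adjusted 0.0720). Spearman's rho was 0.71 for Sox11 (exact permutation p = 0.0881, adjusted 0.0991), 0.89 for Meis2 (0.0123, adjusted 0.0720), 0.86 for Sp8 (0.0238, adjusted 0.0720) and 0.79 for Dlx5 (0.0480, adjusted 0.0720). Without the libraries farthest from the Dcx median, WT replicate 2 and KO replicate 3, r over the remaining 5 was 0.72 for Cd24a, 0.51 for Sox11, 0.62 for Meis2, 0.84 for Sp8 and 0.57 for Dlx5. All stayed positive, and no test was made over 5 libraries. The number of relations that passed depends on single libraries: it was 0 without WT replicate 2 or 3 or any 1 of the KO replicates, and 3 without WT replicate 1 or 4. The permutations ran over all 7 libraries regardless of genotype, so a difference between genotypes that both genes share enters these p-values. With each genotype's mean subtracted, r was 0.90 for Cd24a, 0.76 for Sox11, 0.64 for Sp8, 0.54 for Dlx5 and 0.52 for Meis2. It was 0.43 for Dlx1, 0.35 for Sp9, 0.16 for Igfbpl1 and 0.03 for Dlx2. Within the 4 WT libraries alone, which are too few for a test, r was 0.90 for Sp8, 0.70 for Dlx5, 0.69 for Cd24a, 0.32 for Meis2 and 0.10 for Sox11.

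The 8 other genes whose levels most resembled the mean standardised profile of the 10 genes were Aox4, Mterf2, Socs2, Tmem42, Scn3b, Abraxas1, Gad2 and Fam210b, ranked by Pearson's r over the 7 flow-through libraries among 12738 genes. Their r ran from 0.95 to 0.97, and with so many genes and 7 libraries such values are a description only. Gad2, which encodes an enzyme of GABA synthesis, is on the fixed list of immature neuron genes. It lay at 27.1 to 43.4 CPM in the flow-through. In KO its level fell, with a value of -0.42 on the log2 scale (SE 0.10, edgeR adjusted p = 0.0494), which is just inside the threshold.

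Other genes of the lineage were read from lists. Of 25 further neuroblast and immature neuron genes, 1 fell in KO, Gad2, 0 rose and 24 did not pass. Among the 25, 23 had a negative value, with a median of -0.21, against -0.01 for all genes. Which cells held the Gad2 RNA was not tested. Dpysl3, a collapsin response mediator of growing axons, had -0.38 (SE 0.09, edgeR adjusted p = 0.0608), and Dlx6os1, a long RNA of the Dlx5 and Dlx6 locus that overlaps Dlx6, had -0.43 (SE 0.12, edgeR adjusted p = 0.128). Of 14 genes of ventricular progenitors and cell division 0 passed and 12 were negative, with a median of -0.15. Hes5, a Notch target of neural stem cells, had -0.65 (SE 0.17, edgeR adjusted p = 0.102), Ccnb1, a mitotic cyclin, -0.45 (SE 0.12) and Top2a -0.29 (SE 0.10). Both medians lay on the same side of 0 as that of the 10 genes and nearer to it.

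Migration genes were spread to both sides of 0. Of 29 ligands, receptors and adhesion genes that guide neuroblasts, 0 passed, 14 were negative and 15 positive, and the median was 0.00. Within it, the polysialyltransferase gene St8sia2, which modifies NCAM on neuroblasts, had -0.25 (SE 0.11), the Slit receptor gene Robo2 had -0.27 (SE 0.11), and Tnr, a matrix glycoprotein made by oligodendrocyte lineage cells, had 0.34 (SE 0.09, edgeR adjusted p = 0.121). Of 12 genes listed as doublecortin and microtubule partners, not all of which are known to act with doublecortin, 0 passed and the median was -0.01. Tuba1a, a tubulin of young neurons, had -0.29 (SE 0.13), and the others lay between -0.10 and 0.06.

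Genes of other cell types are given as measured. The test called 1.42% of all genes higher in KO. Of 11 genes of excitatory cortical neurons, 3 rose in KO, Slc17a7 (1.19, SE 0.21), Cux2 (0.50, SE 0.10) and Nrgn (1.22, SE 0.22), and 8 did not pass; the edgeR adjusted p of the 3 ran from 0.0270 to 0.0418, and the summed level of all 11 was 497 to 750 CPM in KO and 219 to 335 CPM in WT libraries, without overlap. Of 10 ependymal genes tested 0 passed and 7 were negative, with a median of -0.14; Tekt1 had -0.38 (SE 0.11, edgeR adjusted p = 0.170), and the mean of Foxj1 was 208 CPM ± 36.5 (SD, n = 4) for WT against 167 CPM ± 23.9 (SD, n = 3) for KO. The 11 listed ependymal genes summed to 306 to 353 CPM in KO and 323 to 460 CPM in WT libraries, and none was at 0 in all flow-through libraries. Of 13 cortical interneuron genes tested, 3 of them members here, 1 rose, the neuropeptide gene Cck (1.11, SE 0.19, edgeR adjusted p = 0.0136). Of 12 striatal genes, Meis2 among them, 0 passed, with a median of 0.20, and Ppp1r1b had 0.76 (SE 0.21, edgeR adjusted p = 0.161). Astrocyte genes (median 0.07, 9 tested), oligodendrocyte genes (median 0.07, 8 tested) and oligodendrocyte precursor genes (median 0.19, 9 tested) had 0 called, as did microglia and macrophage genes (median 0.08, 7 tested), neutrophil genes (median -0.18, 5 tested) and lymphocyte genes (median -0.35, 2 tested). Of 7 endothelial genes 0 passed and 6 were negative, with a median of -0.34. The mitochondrial share of counts was 3.04 to 4.29% in WT and 2.58 to 4.47% in KO flow-through libraries. The part of these other cell types in the neuroblast values was not tested.

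**Figure D4:**
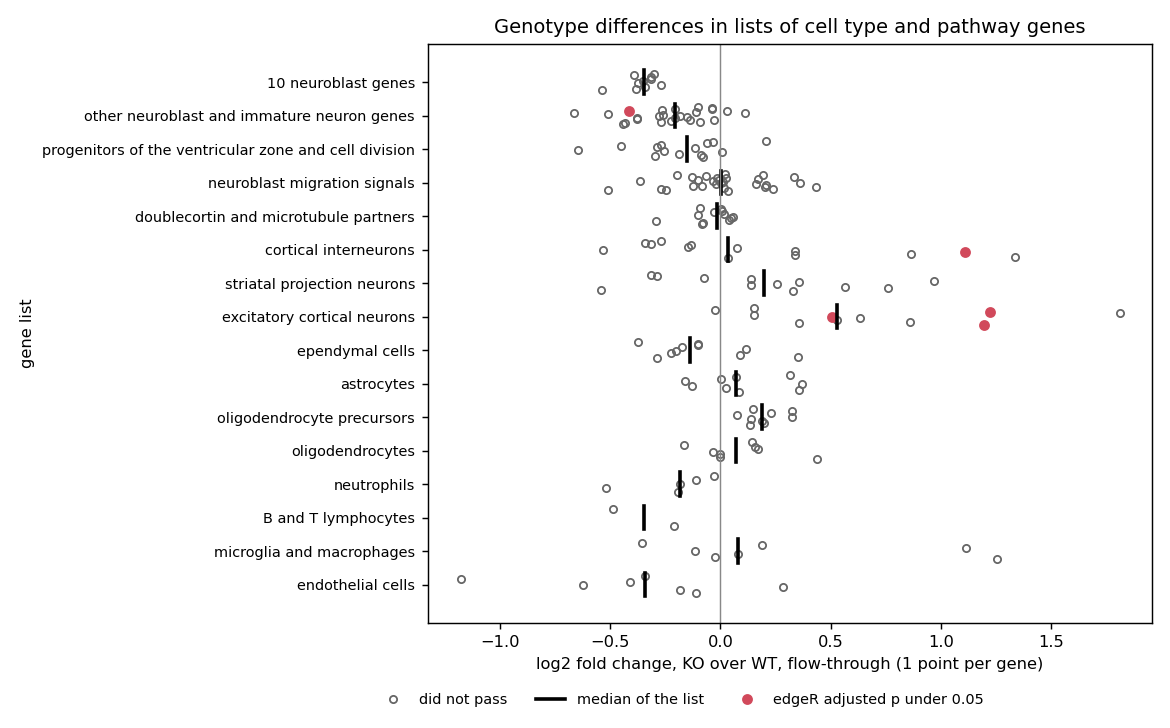
Log2 fold change of KO over WT in the flow-through for every tested gene of the 10 neuroblast genes and 15 lists, 1 point per gene, with the list's median as a black bar and genes past the edgeR threshold filled. The medians of the neuroblast genes and of further immature neuron genes lie at -0.35 and -0.21, and that of excitatory neuron genes at 0.53. Those of endothelial genes (7 tested) and lymphocyte genes (2 tested) lie as low as that of the neuroblast genes, at -0.34 and -0.35.

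Between fractions, 9 of the 10 genes were found almost only in the flow-through, which is the pattern that chose them and carries no test. Dcx averaged 180 CPM in the flow-through and 0.788 CPM in the CD45 libraries, which held 3 to 28 counts each. The flow-through mean was 229 times the CD45 mean for Dcx, 265 times for Dlx2, 241 times for Igfbpl1, 240 times for Sp8, 236 times for Sp9, 225 times for Dlx5, 153 times for Dlx1, 135 times for Sox11 and 108 times for Meis2. With the TMM scaling of the edgeR fit, which corrects for composition, these ratios were lower and in another order, from 76.8 for Meis2 and 94.2 for Sox11 to 149.7 for Dcx, 175 for Dlx2 and 183 for Sp8. Dlx5 had 9 counts in all over the 7 CD45 libraries (exact Poisson 95% interval 4.12 to 17.1, counting error only) and Sp8 had 14, and 6 of the 7 libraries held 3 counts or fewer of each, the number that a count of 0 allows. For these 9 genes the lowest flow-through library stood at 43.3 or more times the highest CD45 library. Over all genes tested, 49.7% had every flow-through library above every CD45 library, and nothing is read from the comparison of these figures because the contrast chose the genes.

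Cd24a was the exception. It held 233 to 426 CPM in the flow-through and 342 to 632 CPM in the CD45 libraries, so the ranges overlapped, and its mean was 345 CPM ± 62.8 (SD, n = 7) in the flow-through and 500.2 CPM ± 88.2 (SD, n = 7) in the CD45 fraction. On library totals that is a log2 ratio of -0.54, and with TMM scaling -1.12. Genes of neutrophils, which carry CD24 on their surface, had a summed level of 9.18 to 16.1 CPM in the flow-through against 6067 to 10852 CPM among CD45 libraries, and Ly6g had 0 counts in all 7 flow-through libraries. Lymphocyte genes had a summed level of 1.68 to 2.43 CPM in the flow-through, with Ms4a1 at 0 counts in all 7 libraries, against 36.7 to 63.1 CPM among CD45 libraries. Microglia and macrophage genes summed to 31.1 to 37.1 CPM in the flow-through and 6612 to 11047 CPM among CD45 libraries. Which of these cells held the Cd24a RNA was not tested.

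**Figure D5:**
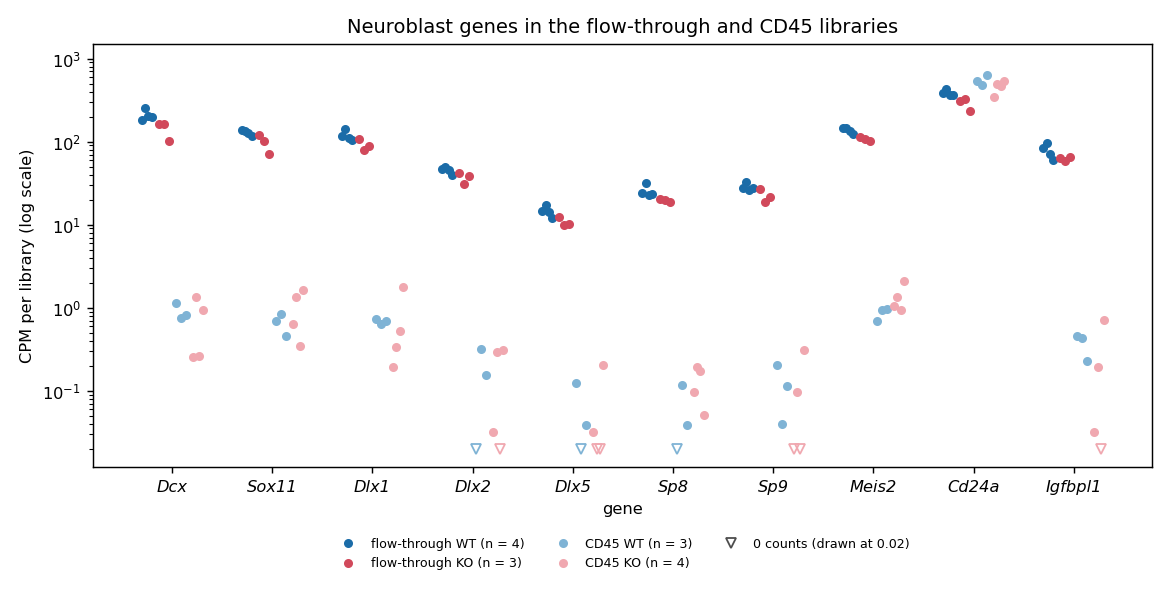
CPM of each gene in every library on a log axis, by fraction and genotype; open triangles at 0.02 mark libraries with 0 counts. 9 genes lie at 10.05 CPM or more in every flow-through library and at 2.11 CPM or less in every CD45 library, whereas Cd24a overlaps between fractions.

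Levels of different genes were compared per length, as CPM per kilobase of exon, over the 7 flow-through libraries. Cd24a was highest at 134 ± 24.3 (SD). Igfbpl1 (21.9 ± 4.34) and Dlx1 (19.9 ± 3.78) followed, with overlapping ranges. Dlx2 (14.6 ± 2.20), Dcx (14.2 ± 3.75) and Sox11 (13.9 ± 2.76) likewise overlapped, and Meis2 stood at 10.3 ± 1.46. Dlx5 (5.68 ± 1.10), Sp9 (5.13 ± 0.912) and Sp8 (5.05 ± 0.942) were the lowest and overlapped too. Such overlap is of the spread between libraries: within every flow-through library Dlx5 stood above Sp8. Dcx varied most between libraries, by 2.53 times from lowest to highest, and Meis2 least, by 1.43 times.

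In the CD45 fraction the genotype comparison had little signal to work on. Only 6 of the 10 genes passed the filter on low counts, and 0 were called by edgeR, which called 0% of 15660 genes there, while DESeq2 called 10; 693 genes, 4.43%, and 0 of these 6 had an unadjusted p under 0.05. Cd24a was the sole member with high counts. It held 536, 484 and 632 CPM in WT libraries and 342, 498, 469 and 540 CPM in KO libraries, which overlapped. Its log2 fold change was -0.28 (SE 0.17, 95% interval -0.66 to 0.10, edgeR adjusted p = 0.974). For Dcx the value was -0.39 (SE 0.58), for Sox11 0.58 (SE 0.52) and for Meis2 0.63 (SE 0.38), on at most 41 counts per library. The 95% interval of Dcx, from -1.67 to 0.90, spans its flow-through value of -0.53.

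Whether the genotype difference itself differed between fractions was tested as an interaction over all 14 libraries. Dlx2, Dlx5, Sp8 and Sp9, which did not pass the filter within CD45, entered that fit only through their flow-through counts, and no value is read from them. Of the other 6 genes edgeR called 0, against 0% of 18098 genes, where DESeq2 called 46. At an unadjusted p under 0.05 edgeR had 1 of the 6, Meis2, against 7.21% of all genes. Meis2 had an interaction of -0.91 (SE 0.28, edgeR adjusted p = 0.533) and Sox11 of -0.95 (SE 0.46). For Cd24a, the member measured well in both fractions, the interaction was -0.09 (SE 0.22, 95% interval -0.56 to 0.38), so a difference between fractions was not shown.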

How the data were processed

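Gene counts of bulk RNA-seq libraries, whole numbers of reads per gene, were deposited by the authors without normalization, in 1 table per fraction. A stranded poly(A) kit with 14 cycles of PCR was used, per the labels' protocols. The submitters' processing notes name Trim Galore, FastQC, STAR 2.7.9a and the build GRCm38; how reads were counted, with which strand setting and annotation, is not given in the sources used here. Of 33223 genes, 33130 were matched to GENCODE M21, which gave names, positions, exon lengths and the GC content of the longest transcript. The deposited normalized tables were not used.

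Members and lists were chosen with earlier results of these data known. Counts were tested with edgeR 4.0.16 (quasi-likelihood, robust, TMM, filterByExpr at its minimum count of 10 and minimum total of 15), Benjamini-Hochberg adjustment and an adjusted p under 0.05, in R 4.3.3. DESeq2 1.42.0, other scalings, no filter, a GC and length correction and leaving out each library were alternatives. On simulated counts for the flow-through comparison, 100% of 100 genes changed by 1 log2 unit were recovered over 16511 genes. For the interaction 80% were recovered. The simulated spread was the same for all genes, and only genes with high counts were changed. Differences as small as those of the members, -0.53 to -0.27, were not simulated, so these shares do not show the power to call them. Named genes are the 10 members, Epha4, list genes that pass or have the smallest p, and the 8 closest profiles; Foxj1, Prokr2, Ly6g, Ms4a1 and the striatal and interneuron markers were named after their values were seen. Chi-square per degree of freedom was 10.2 to 55.2 over the 18 within-group pairs, so no pair was treated as 1 library.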

Additional observations from a re-analysis of the deposited data

Results flagged for a closer look

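Among 22 groups of 4 libraries examined, 2 had a library far from the others; chance gives about 1 in 20. Sp8 stood at 31.7 CPM in flow-through WT replicate 2, against 23.9 CPM in the next library of that group. Dlx5 stood at 0.206 CPM in CD45 KO replicate 4, which is 4 counts.

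The library labelled flow-through WT that was left out held 4 genes slightly above every CD45 WT library. These were Sox11 at 1.0104 CPM (highest CD45 WT library 0.832), Sp8 at 0.230 CPM (0.119), Sp9 at 0.230 CPM (0.206) and Igfbpl1 at 0.551 CPM (0.453), on 5 to 22 counts each.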

How the results depend on the processing

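No paired analysis was possible because the labels give no replicate numbers. In the flow-through, genes called numbered 260, and 629 without the filter, 436 with DESeq2, 156 with the GC and length trend removed, 30 in the joint fit of 14 libraries, 0 with the left-out library entered as labelled, and 134 to 287 with each library left out (144 without WT replicate 2, 159 without WT replicate 3, 134 without KO replicate 1 and 163 without KO replicate 2). Members called numbered 0, also with each library left out in turn, but 4 without the filter (Dcx, Sox11, Dlx1 and Cd24a) and 1 with DESeq2. Without the filter the SE of those 4 was 0.10 each, smaller than with it. The 10 members stayed negative in each of 14 alternatives, except Dlx2 at 0.0409 and Igfbpl1 at 0.00809 with the left-out library entered as labelled. In CD45, DESeq2 called 10 genes, and leaving out 1 library gave 0 to 1 (1 without KO replicate 1). Dlx1 there, 0.00 as reported, was -0.00501 with RLE scaling and -0.0844 in the joint fit, and ran from -1.12 to 0.37 with each library left out. For the interaction, 15 genes were called without the filter, 46 with DESeq2, 1 with the left-out library placed with CD45 WT, and 0 to 2 with each library left out (2 without CD45 WT replicate 2 or 3, 1 without CD45 KO replicate 1). The median log2 ratio of the members between fractions was 7.19, and 6.85 in KO libraries alone; upper-quartile scaling moved the median of all genes by 0.25. Relations with Dcx that passed numbered 5, and 0 to 3 with each library left out: 3 without WT replicate 1 or WT replicate 4 and 0 without any of the other 5 in turn. A correlation over 6 libraries has fewer permutations.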
